A study of Mus musculus with 10 samples.

Results

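The cell cycle genes described here are 42 genes of DNA replication and mitosis, measured in T cells that had infiltrated colorectal carcinomas of mice. They were chosen by name, as 16 genes of the G1/S step and 26 genes of G2/M. All 42 were found by symbol among the 31053 genes of the 5 single-cell RNA libraries, which were made with 5′ chemistry. Per the labels, 2 RNA libraries came from untreated tumours, 1 from tumours given Stellera chamaejasme, a plant, and 2 from tumours given S. chamaejasme together with anti-PD-1, an antibody against the T cell checkpoint receptor PD-1 (the combination). Each had a matched T cell receptor (TCR) library. Anti-PD-1 given alone was not analysed here, and a difference between the combination and untreated carries both agents. The sources used here do not give strain, age, tumour line, dose, length of treatment or cell sorting, and the labels do not say whether libraries of a group are separate animals, so p-values measure only the spread between these libraries, which may be technical.

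A resting T cell that meets its antigen leaves quiescence when cyclin D and cyclin E kinases release E2F transcription factors from the retinoblastoma proteins. E2F then turns on the G1/S genes: the MCM helicase subunits that open DNA, the sliding clamp PCNA and the enzymes that make nucleotides. Later, a complex of B-MYB, FOXM1 and MuvB turns on the G2/M genes, which include cyclins A and B, CDK1, the Aurora and Polo kinases, and proteins of the kinetochore and spindle. In resting cells the same MuvB core, with p130 and E2F4, holds these genes silent through a promoter element called CHR, which often lies beside CCAAT boxes bound by NF-Y. Cytotoxic and regulatory T cells in tumours are both known to divide there.

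The 2 sets differed in their promoter sequences, which played no part in the choice of members. RefSeq promoter windows (GRCm38.p6, 250 bases before to 50 bases after a gene's start) were matched for 34 of the 42 members. Mcm4, Ccne2, Gins2, Stmn1, Ccna2, Aurkb, Kif20a and Tpx2 are named only. On either strand, the CHR letters TTTGAA or TTCGAA were in 17 of 21 windows of G2/M members (81.0%), in 2 of 14 windows of G1/S members (14.3%) and in 19.2% of all 32851 windows. Their reverse complements and the other motifs could share letters, and Mcm7 had 2 windows. The E2F letters TTTNNCGC were in 7 of the 14 G1/S windows, in 1 of the 21 G2/M windows (4.76%) and in 5.17% of all windows. The letters CCAAT were common to both sets, in 19 of 21 G2/M windows (90.5%) and 10 of 14 G1/S windows (71.4%), against 37.4% of all. A CHR match and a CCAAT match stood together in 81.0% of G2/M windows, 14.3% of G1/S windows and 7.52% of all windows. A match describes letters and is no measure of binding in these cells. The 5 windows below belong to members that the results turn on and show the 2 patterns, and they were chosen after these counts were seen. They are Mki67 (chr7:135716330-135716629, minus strand), Ube2c (chr2:164769679-164769978, plus), Cenpa (chr5:30666636-30666935, plus), Pclaf (chr9:65890073-65890372, plus) and Mcm6 (chr1:128359656-128359955, minus), each 5′ to 3′ along its gene, with matches to any of the 3 motifs in capitals.
Mki67: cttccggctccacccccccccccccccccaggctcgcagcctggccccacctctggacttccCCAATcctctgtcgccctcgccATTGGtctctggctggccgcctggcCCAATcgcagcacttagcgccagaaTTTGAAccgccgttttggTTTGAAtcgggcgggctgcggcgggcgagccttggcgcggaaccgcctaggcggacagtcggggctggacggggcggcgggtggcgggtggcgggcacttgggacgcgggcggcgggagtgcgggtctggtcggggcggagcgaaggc
Ube2c: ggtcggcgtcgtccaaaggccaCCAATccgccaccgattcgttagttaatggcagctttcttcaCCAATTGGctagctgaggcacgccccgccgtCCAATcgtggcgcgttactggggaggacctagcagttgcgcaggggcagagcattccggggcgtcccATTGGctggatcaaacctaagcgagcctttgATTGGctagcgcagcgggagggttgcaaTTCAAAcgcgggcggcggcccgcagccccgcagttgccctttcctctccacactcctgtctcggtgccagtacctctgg
Cenpa: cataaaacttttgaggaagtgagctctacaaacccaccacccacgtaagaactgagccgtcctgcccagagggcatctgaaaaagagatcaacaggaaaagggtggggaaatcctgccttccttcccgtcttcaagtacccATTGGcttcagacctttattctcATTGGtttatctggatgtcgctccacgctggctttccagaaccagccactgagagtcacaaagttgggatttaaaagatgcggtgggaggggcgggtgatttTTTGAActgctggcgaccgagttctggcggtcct
Pclaf: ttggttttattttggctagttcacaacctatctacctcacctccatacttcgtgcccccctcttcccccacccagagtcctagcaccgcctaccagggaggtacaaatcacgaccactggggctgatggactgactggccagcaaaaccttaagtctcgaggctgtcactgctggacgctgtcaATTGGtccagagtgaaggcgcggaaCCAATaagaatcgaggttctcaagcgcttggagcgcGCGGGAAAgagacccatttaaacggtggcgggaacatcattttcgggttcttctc
Mcm6: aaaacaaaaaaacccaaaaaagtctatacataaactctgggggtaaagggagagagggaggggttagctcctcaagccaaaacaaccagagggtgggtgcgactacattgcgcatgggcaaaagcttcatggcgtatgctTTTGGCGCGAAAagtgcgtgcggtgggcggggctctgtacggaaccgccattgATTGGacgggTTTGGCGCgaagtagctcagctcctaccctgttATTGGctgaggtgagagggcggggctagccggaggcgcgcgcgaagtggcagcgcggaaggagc
Mki67, Ube2c and Cenpa, all of G2/M, held a CHR match 3′ of all their CCAAT matches and no E2F match. Pclaf and Mcm6, of G1/S, held E2F matches and CCAAT boxes with no CHR match. Mcm6, which encodes a subunit of the replicative helicase, had 3 E2F matches.

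The 5 RNA libraries held 22590 barcodes, and 21549 of them passed a filter on detected genes (300 or more) and on mitochondrial reads (no more than 10% of UMIs), 2313 to 5416 per library. The libraries held 8763821 to 27759543 UMIs each before this filter. Median UMIs per kept cell were 3563 and 3943.5 in the untreated libraries, 3452 in the S. chamaejasme library, and 4969 and 4908 in the combination libraries. Pairs of libraries shared 12 to 48 barcodes. A T cell gene (Cd3d, Cd3e, Cd3g, Trac, Trbc1 or Trbc2) had a UMI in 98.9% to 99.5% of cells of each library. The S. chamaejasme library stood apart in its plasma cell markers (267 CPM, UMIs scaled to a library total of 1000000, against 1.38 to 25.3 in the others) and erythroid markers (264, against 0.0 to 1.49), and untreated 1 in its myeloid markers (133, against 5.74 to 39.1). In the untreated libraries AY036118, a gene that picks up ribosomal RNA reads, stood at 2840 and 3892 CPM after TMM scaling of library sizes, against 715 to 1180 in the treated ones. Their part in the results was not tested, but counts below are also given for cells with a T cell gene and no other cell type marker.

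Member transcripts were unevenly spread over the list. A UMI of a 5′ library counts 1 captured transcript whatever the gene's length. The members together made up 555 and 525 CPM (before any TMM scaling) in the untreated libraries, 468 in the S. chamaejasme library, and 553 and 566 in the combination libraries. Of their 51960 UMIs, 73.4% came from 8 genes: Cenpa, Pcna, Dut, Mcm4, Mcm7, Mcm6, Stmn1 and Mcm2. Of these 8, 6 act in DNA replication, while Cenpa encodes the centromeric histone and Stmn1 a microtubule-destabilizing protein. At the other end Bub1, a spindle checkpoint kinase, had 18 UMIs in all, and it was the member that did not pass the filter on low counts.

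**Figure D1:**
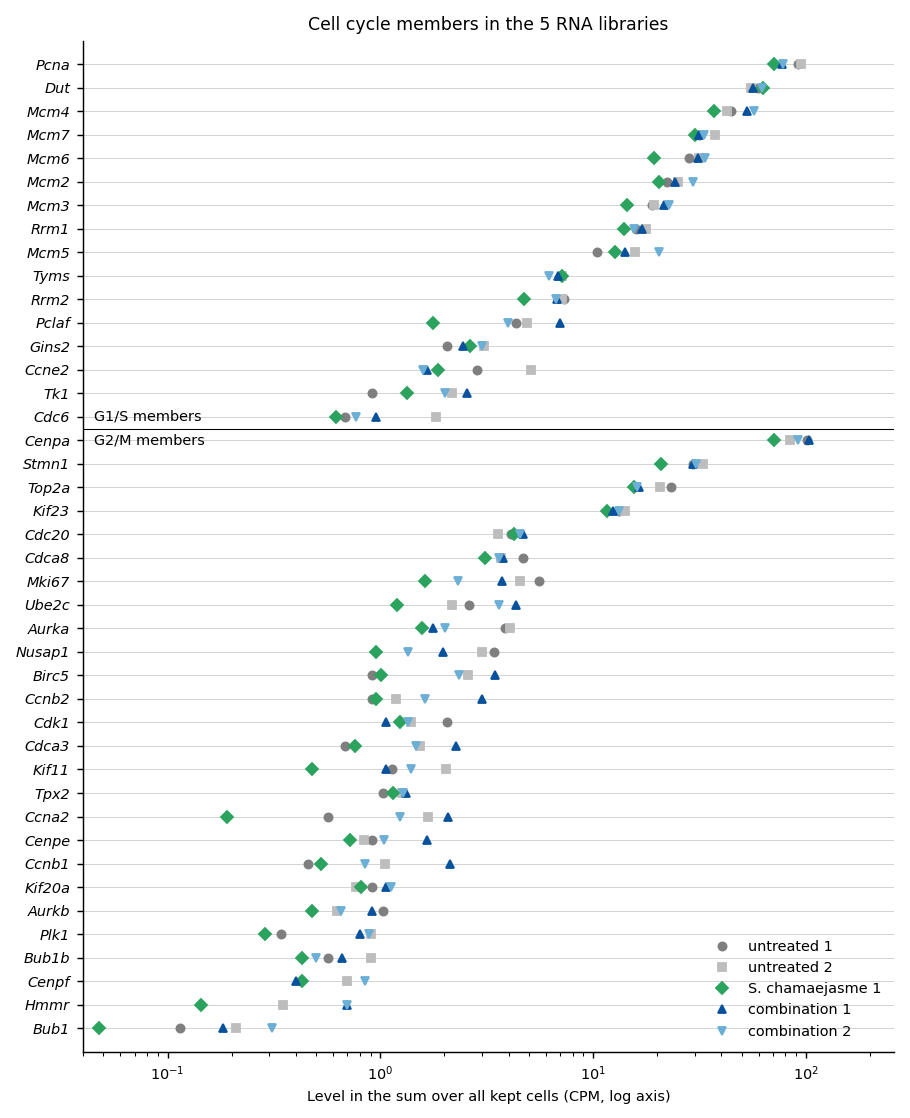
Level of each of the 42 members (vertical axis, G1/S above the line and G2/M below, each ordered by mean) in the sum over all kept cells of each of the 5 RNA libraries, in CPM on a log axis; each symbol is 1 library and a level of 0 (Cenpf and Hmmr in untreated 1) is not drawn. The S. chamaejasme library (green diamonds) was the lowest of the 5 for 26 of the 42 members.

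Among the G1/S members Pcna, which encodes the sliding clamp of DNA polymerases, was the most abundant, with 91.9 and 94.9 CPM in the untreated libraries, 70.5 in the S. chamaejasme library, and 76.8 and 78.3 in the combination libraries (CPM after TMM scaling, used for all levels below unless stated). Both untreated libraries were above the 3 treated ones. Dut, whose dUTPase keeps uracil out of DNA, had 59.2 and 55.2 CPM untreated, 62.6 with S. chamaejasme, and 56.5 and 62.2 with the combination. The S. chamaejasme library was the highest of 5 for Dut and for no other member. Mcm4 had 44.5 and 42.7 CPM untreated, 37.0 with S. chamaejasme, and 52.5 and 57.2 with the combination, so that the combination libraries lay above both untreated ones. Mcm7 gave 31.3 and 37.5 CPM untreated, 29.99 with S. chamaejasme, and 31.4 and 33.1 with the combination, and Mcm2 gave 22.2 and 25.1, 20.3, and 24.3 and 29.3 CPM in the same order. For both helicase subunits the untreated and combination libraries overlapped.

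Among the G2/M members Cenpa had 101 and 84.0 CPM untreated, 70.7 with S. chamaejasme, and 103 and 91.9 with the combination, with the combination and untreated libraries overlapping. Top2a, the topoisomerase that untangles sister chromatids, had 23.2 and 20.5 CPM untreated, 15.5 with S. chamaejasme, and 16.4 and 16.03 with the combination. All 3 treated libraries were below both untreated ones. Mki67, which encodes the proliferation marker Ki-67, had 5.58 and 4.54 CPM untreated, 1.62 with S. chamaejasme, and 3.73 and 2.31 with the combination, again with every treated library below both untreated ones. Kif23, a kinesin of the central spindle, had 13.2 and 14.1 CPM untreated, 11.7 with S. chamaejasme, and 12.4 and 13.3 with the combination. Cdc20, an activator of the anaphase-promoting complex, had 4.10 and 3.56 CPM untreated, 4.25 with S. chamaejasme, and 4.69 and 4.51 with the combination, which lay above both untreated libraries. Cdca8, the chromosomal passenger protein borealin, had 4.67 and 3.70 CPM untreated, 3.104 with S. chamaejasme, and 3.77 and 3.62 with the combination. Cdk1, the mitotic kinase itself, was rare at 2.05 and 1.40 CPM untreated, 1.24 with S. chamaejasme, and 1.06 and 1.35 with the combination. Apart from Mcm6, Stmn1 and Aurka, given below, the other 27 members lay between 0.0 and 22.8 CPM in every library.

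The first comparison asked how the members changed from untreated tumours to those given S. chamaejasme, alone or with anti-PD-1. Summed over all kept cells, the members were as a rule lowest in the S. chamaejasme library, while the combination libraries lay on both sides of the untreated ones. In such sums a smaller share of dividing cells and less RNA per cell cannot be told apart. The S. chamaejasme library was the lowest of 5 for 26 of 42 members, 10 of G1/S and 16 of G2/M. Among genes with at least 50 UMIs in all it was the lowest for 25 of 40 members (62.5%), against 25.2% of all 11722 such genes. On CPM without TMM scaling these were 22 members and 15.4% of genes. Both combination libraries were above both untreated ones for 8 of the 40 members (31.8% of all genes) and below both for 9 (29.7% of all genes).

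Against untreated, edgeR's quasi-likelihood test with Benjamini-Hochberg adjustment over all 12559 genes tested called 2 of 41 members in the S. chamaejasme library, both lower, where it called 6.68% of all genes and 3.45% in the lower direction. Mcm6 had 28.2 and 31.4 CPM untreated, 19.2 with S. chamaejasme, and 30.9 and 33.5 with the combination. The S. chamaejasme library was below the other 4, whose groups overlapped. Mcm6 fell by 0.64 on the log2 scale (SE 0.13, adjusted p = 0.042). Stmn1, whose product stathmin destabilizes microtubules, had 29.5 and 32.7 CPM untreated, 20.9 with S. chamaejasme, and 29.5 and 30.4 with the combination. It fell by 0.58 (SE 0.13, adjusted p = 0.045) in the single S. chamaejasme library, which the fit assumes to vary like the other groups. DESeq2 called 0 members, with adjusted p = 0.051 for Mcm6 and 0.080 for Stmn1. The median change of the 41 members was -0.43, against -0.01 for all genes, and 37 of the 41 were negative. Without untreated 2 the median was -0.26 and 13 of 41 were positive. For G1/S members the median was -0.28 and for G2/M members -0.58.

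Several mitotic genes had larger changes that did not pass the threshold. Mki67 had a change of -1.62 (SE 0.39, adjusted p = 0.054), Nusap1, a microtubule-bundling protein of the spindle, -1.73 (SE 0.41, adjusted p = 0.054), and Aurka, the centrosomal Aurora kinase, -1.33 (SE 0.31, adjusted p = 0.051). Ccna2, which encodes cyclin A, had 0.57 and 1.68 CPM untreated and 0.19 with S. chamaejasme, from 5, 24 and 4 UMIs, and its change of -2.62 had an SE of 0.89 (adjusted p = 0.11). Pclaf, a PCNA-binding factor of the replication fork, had 4.33 and 4.89 CPM untreated, 1.77 with S. chamaejasme, and 6.96 and 3.97 with the combination. The S. chamaejasme library again lay below the others, with a change of -1.39 (SE 0.42, adjusted p = 0.086). With each untreated or combination library left out in turn, the change of Mcm6 ran from -0.70 to -0.55 and that of Stmn1 from -0.64 to -0.49. Mki67 ran from -1.77 to -1.48 and Nusap1 from -1.82 to -1.64. Without either combination library Mcm6 (adjusted p = 0.096 and 0.099) and Stmn1 (0.132 and 0.133) each missed the threshold. In cells with a T cell gene and no other cell type marker, 4 members were called, all lower. The share of all genes called in those cells is not given here, so that count does not show a change particular to the members.

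For the combination against untreated, 1 of 41 members passed, where 7.45% of all genes did, 4.44% in the lower direction. Aurka had 3.87 and 4.05 CPM untreated, 1.58 with S. chamaejasme, and 1.76 and 2.004 with the combination. All 3 treated libraries were below both untreated ones. Aurka fell by 1.08 on the log2 scale with the combination (SE 0.24, adjusted p = 0.045). The call was lost without either combination library (adjusted p = 0.31 and 0.22), and DESeq2 called 0 members. Ccne2, which encodes a cyclin E that starts S phase, had 2.85 and 5.10 CPM untreated, 1.86 with S. chamaejasme, and 1.65 and 1.58 with the combination. Its treated libraries were all below the untreated ones, with a change of -1.34 (SE 0.32, adjusted p = 0.052). Mcm4 (0.33, SE 0.09, adjusted p = 0.071), Top2a (-0.43, SE 0.12, adjusted p = 0.071) and Pcna (-0.27, SE 0.08, adjusted p = 0.090) came next in p and went different ways. The median member changed by 0.08, against -0.003 for all genes, and 23 of 41 were positive. That median was 0.006 without untreated 1, 0.19 without untreated 2, 0.06 without combination 1 and 0.04 without combination 2. With each untreated or combination library left out in turn, the change of Aurka ran from -1.17 to -0.98 and that of Ccne2 from -1.65 to -0.81. Mcm4 ran from 0.27 to 0.39 and Pcna from -0.28 to -0.24.

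**Figure D2:**
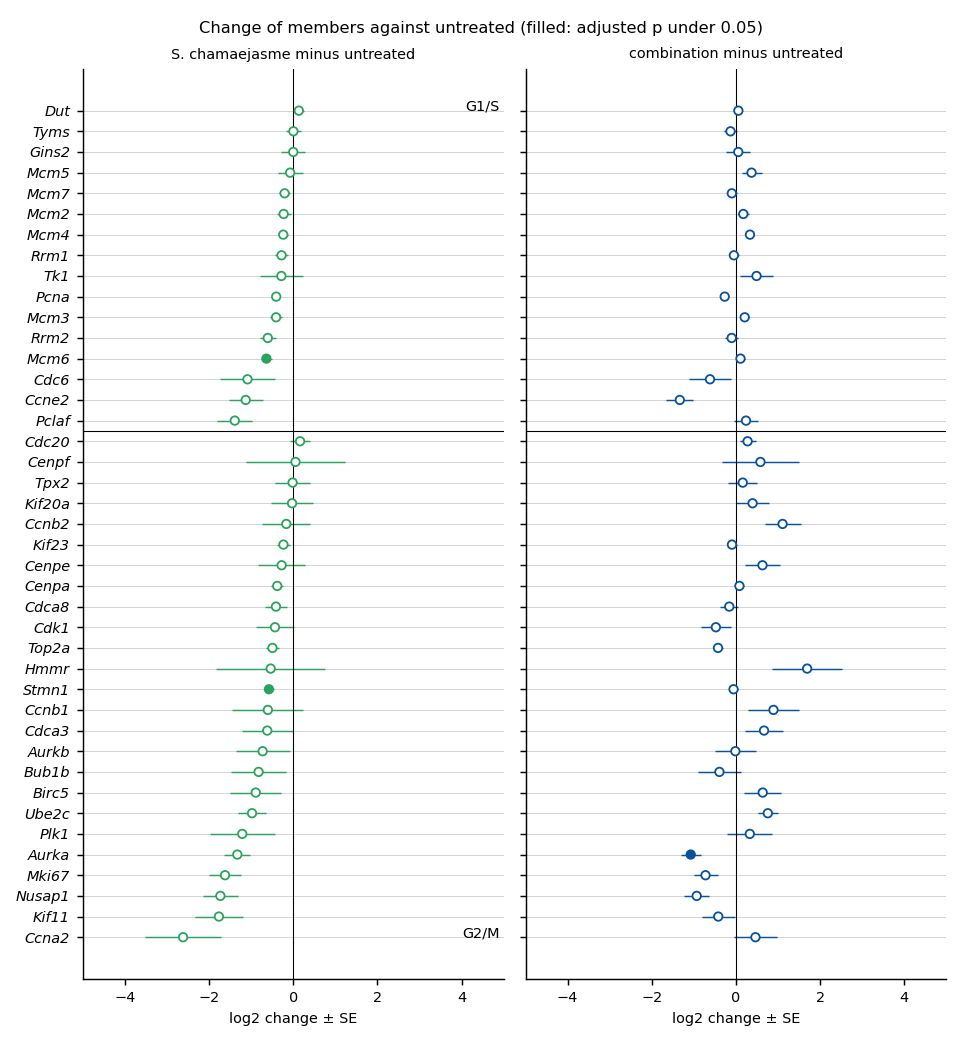
Log2 change ± SE (horizontal axes, edgeR) of the 41 tested members in the S. chamaejasme library and in the combination libraries, each against the 2 untreated libraries that both comparisons share; filled points passed an adjusted p of 0.05. With S. chamaejasme 37 of 41 points lie left of 0 and 2 are filled (Mcm6, Stmn1), and with the combination 23 of 41 lie right of 0 and 1 is filled (Aurka).

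Between the combination and the S. chamaejasme library, edgeR called 0 of 41 members, where it called 0.725% of all genes, with 13 members at an unadjusted p under 0.05 and 1 called by DESeq2. The median member was 0.50 higher with the combination, against 0.0003 for all genes. Ube2c, a ubiquitin-conjugating enzyme of the anaphase-promoting complex, had 4.36 and 3.62 CPM with the combination and 1.19 with S. chamaejasme, a difference of 1.74 (SE 0.32, adjusted p = 0.074). This comparison and the 2 above share libraries, so their values are not independent of one another. The count of called members here depended on which libraries stayed in the shared fit.

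Genes that start or restrain the cycle passed about as often as all genes did (7.45% with the combination). Of 18 regulators (cyclins D and E, their kinases, E2F factors, Myc, Mybl2 and Foxm1), 1 of 18 tested rose with the combination and none fell. It was Cdk4, a G1 kinase, at 52.8 and 60.2 CPM untreated, 75.3 with S. chamaejasme, and 75.1 and 75.5 with the combination, a change of 0.41 (SE 0.09, adjusted p = 0.048). Of 29 brakes and quiescence genes, 3 fell with the combination. Cdkn1a, which encodes the kinase inhibitor p21, had 81.7 and 73.1 CPM untreated, 88.3 with S. chamaejasme, and 36.0 and 28.4 with the combination. The combination libraries were below the other 3, and Cdkn1a fell by 1.26 (SE 0.13, adjusted p = 0.014). The stress genes Gadd45b (fell by 0.71, SE 0.11, adjusted p = 0.025) and Gadd45g (fell by 0.43, SE 0.10, adjusted p = 0.046) were the others. Of 61 tested genes among 65 others of S phase or mitosis, 1 rose, Rfc2 of the clamp loader (0.40, SE 0.09, adjusted p = 0.048), and 3 fell: Cks2, a CDK-binding subunit (fell by 0.76, SE 0.10, adjusted p = 0.016), Gmnn, the replication-licensing inhibitor geminin (fell by 0.57, SE 0.11, adjusted p = 0.038), and the chromatin protein Hmgb2 (fell by 0.50, SE 0.11, adjusted p = 0.044). With S. chamaejasme alone, 0 regulators, 0 brakes and 3 of the other phase genes passed: Rfc2 rose by 0.56 (SE 0.11, adjusted p = 0.038), and Cks2 (fell by 0.63, SE 0.12, adjusted p = 0.037) and Hmgb2 (fell by 0.71, SE 0.14, adjusted p = 0.036) fell. For those 2 lists of 0, edgeR gave 3 regulators and 6 brakes at an unadjusted p under 0.05.

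A second question was whether T cell lineages differed. Cells were placed in gates by UMIs of lineage genes that are no members: a CD8 gate (Cd8a or Cd8b1, without Cd4 or Foxp3) of 3985 cells, a CD4 gate (Cd4, without Cd8a, Cd8b1 or Foxp3) of 6246 cells and a Foxp3 gate (Foxp3, the regulatory T cell factor, without Cd8a or Cd8b1) of 1377 cells. A Trdc gate for γδ T cells had only 219 cells, 16 in the smallest library, and was not tested. Another 9295 cells had none of these UMIs, so a gate is a sample of its lineage biased to deeper cells.

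Of 23 tested members, 12 were higher in the Foxp3 gate than in the CD4 gate of the same library, and the other 11 did not pass. Comparing the gates within libraries (15 sums, library as a block), edgeR called 12 of 23 tested members, all higher in the Foxp3 gate, where it called 33.2% of all 9409 genes and 17.9% in the higher direction. The filter on low counts could admit a rare gene on its counts in the Foxp3 gate alone. Rare members high in that gate, such as Tk1, could thus be tested while rare members low there were not. The count therefore leans toward members higher in the Foxp3 gate, and so does the median over the tested members. That median was 0.50 higher, against -0.01 for all genes, and says nothing of the members that were not tested. The differences of rare members such as Tk1 carry the same lean. The called members were 6 of 14 tested G1/S and 6 of 9 tested G2/M genes. Tk1, thymidine kinase, had 8.53, 8.26, 5.504, 7.46 and 6.17 CPM in the Foxp3 gate of untreated 1, untreated 2, S. chamaejasme, combination 1 and combination 2. In the CD4 gate it had 0.0, 2.54, 0.996, 1.60 and 1.08 CPM in that order. The gates did not overlap, and Tk1 was 2.35 higher on the log2 scale (SE 0.36, adjusted p = 2.8e-05). Pclaf had 34.1, 12.4, 9.17, 10.1 and 14.4 CPM in the Foxp3 gate and 2.25, 3.05, 1.59, 4.30 and 3.69 in the CD4 gate. It was higher in 5 of 5 libraries, by 2.03 (SE 0.43, adjusted p = 0.0010).

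Among the mitotic genes, Ube2c had 28.4, 11.0, 2.75, 5.27 and 12.3 CPM in the Foxp3 gate and 1.80, 2.03, 2.39, 1.90 and 3.58 in the CD4 gate, higher in 5 of 5 libraries by 1.86 (SE 0.47, adjusted p = 0.0041). Mki67 had 31.3, 19.3, 5.504, 7.02 and 9.05 CPM in the Foxp3 gate and 2.70, 5.59, 2.19, 4.496 and 2.28 in the CD4 gate. It too was higher in 5 of 5 libraries, by 1.65 (SE 0.32, adjusted p = 0.0004). The untreated libraries had the 2 highest Mki67 levels of the Foxp3 gate. Cdca8 (1.32, SE 0.27), the ribonucleotide reductase subunit Rrm2 (1.14, SE 0.35), Nusap1 (1.07, SE 0.39) and Tyms, thymidylate synthase (0.94, SE 0.23), completed the 8 largest differences, with adjusted p from 0.00062 to 0.040. Rrm2, Nusap1 and Tyms were higher in 4 of 5 libraries. Nusap1 rested on untreated 1, where it had 19.9 CPM in the Foxp3 gate against 0.92 to 4.13 in the other libraries, and without that library its difference was 0.68 (adjusted p = 0.24). Cenpa (0.77), Mcm6 (0.58), Kif23 (0.50) and Mcm3 (0.48) were the remaining called members. Of the 11 that did not pass, Mcm2 (-0.25) and Mcm7 (-0.28) were lower in the Foxp3 gate in 5 of 5 libraries, with adjusted p = 0.18 and 0.14.

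These differences were smaller when gates were drawn at equal depth. The median cell of the Foxp3 gate had fewer UMIs than that of the CD4 gate in 5 of 5 libraries (2797 to 4712 against 3726 to 5283.5). When cells were thinned to 2000 UMIs before gating, which left 838 Foxp3 and 3426 CD4 cells, 4 of 19 members passed, 2 higher and 2 lower. Mki67 (1.40, SE 0.45, adjusted p = 0.025) and Cenpa (0.64, SE 0.13, adjusted p = 0.00042) stayed higher, and Mcm2 (-0.50, SE 0.16, adjusted p = 0.028) and Mcm7 (-0.53, SE 0.16, adjusted p = 0.017) were lower. Of the 12 members called above, 9 were tested this way and all 9 kept their sign, with a median difference of 0.40 instead of 0.94. Only 2 of the 9 were still called. Thinning can also remove a cell's Foxp3 UMIs, and a cell that keeps a Cd4 UMI then moves to the CD4 gate. The part of such moves in the smaller differences was not tested. Tk1, Ube2c and Nusap1, among the largest differences above, did not pass the filter on low counts there, so they could not be checked at equal depth. Epcam (3.38, SE 0.19) and the B cell gene Cd79b (2.18, SE 0.37) were also higher in the Foxp3 gate, and their part in the result was not tested. In cells with a T cell gene and no other cell type marker, 10 members were still called, all higher. Without combination 2 the count was 7. The share of all genes called in these alternatives, thinned gates included, is not given here. Their counts thus do not show a difference particular to the members.

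**Figure D3:**
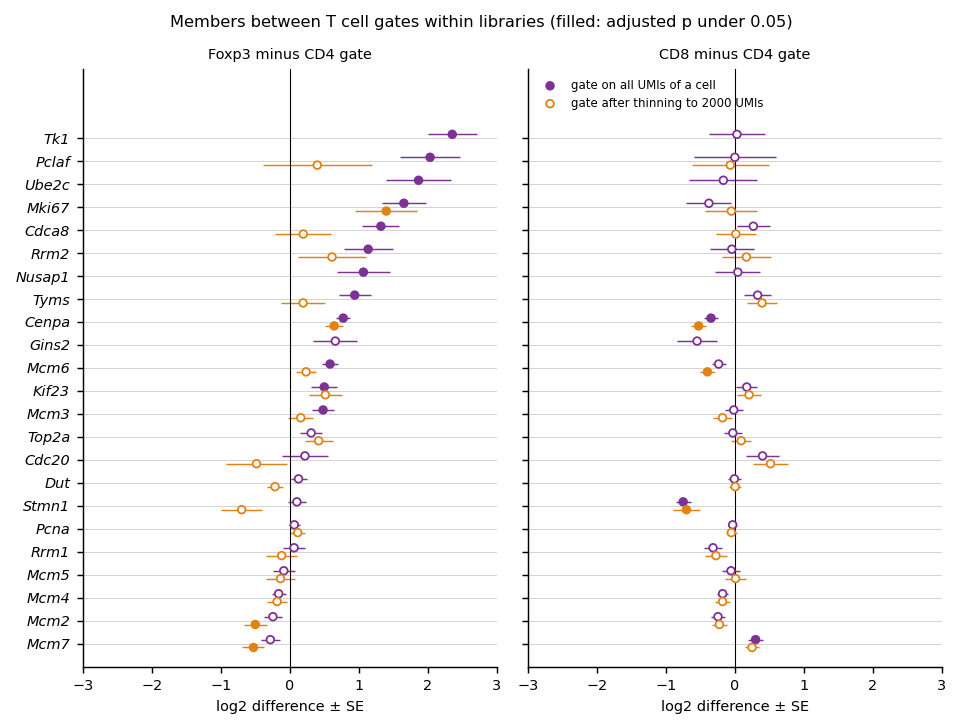
Log2 difference ± SE (horizontal axes, edgeR with library as a block) of 23 members between the Foxp3 and CD4 gates (left) and between the CD8 and CD4 gates (right), with cells gated on all their UMIs (purple) or after thinning to 2000 UMIs (orange); filled points passed an adjusted p of 0.05. On the left 12 purple points are filled, all right of 0, and 4 orange points are filled, 2 on each side.

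Few members passed between the CD8 and CD4 gates. There edgeR called 3 of 23, where it called 25.7% of all genes, and the median member differed by -0.03. Stmn1 had 20.8, 32.0, 15.1, 20.2 and 16.8 CPM in the CD8 gate and 36.8, 37.6, 27.1, 33.9 and 35.5 in the CD4 gate, in the library order above. It was lower in the CD8 gate in 5 of 5 libraries, by a log2 difference of -0.75 (SE 0.11, adjusted p = 2.3e-05). Cenpa was also lower in 5 of 5 libraries, at 83.5, 75.8, 49.7, 81.3 and 69.6 CPM against 105, 78.5, 76.7, 99.0 and 93.1 (difference -0.34, SE 0.10, adjusted p = 0.011). Mcm7 was higher in 5 of 5, at 43.8, 48.3, 38.4, 35.1 and 36.9 CPM against 27.8, 40.9, 26.9, 32.7 and 32.7 (difference 0.30, SE 0.10, adjusted p = 0.036), and its call was lost in 8 of 14 alternatives. With thinned gates Stmn1 (-0.70), Cenpa (-0.52) and Mcm6 (-0.40) passed, all lower in the CD8 gate.

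Regulators and brakes also differed between the Foxp3 and CD4 gates, in both directions. Beside each count stands the share of all genes called, 33.2%. Of 11 tested regulators, 3 were higher, E2f3 (1.03, SE 0.19), the phosphatase Cdc25b (0.64, SE 0.18) and Cdk6 (0.59, SE 0.15), and 3 were lower, Ccnd3 (-0.96, SE 0.08), Ccnd2 (-0.43, SE 0.08) and Myc (-0.37, SE 0.10). Of 25 tested brakes, 8 were higher and 6 lower. Cdkn1a had 99.5, 151, 234, 108 and 58.9 CPM in the Foxp3 gate against 88.9, 66.8, 91.6, 27.4 and 24.8 in the CD4 gate, higher in 5 of 5 libraries by 1.35 (SE 0.18). The INK4 inhibitor Cdkn2c was 1.12 higher (SE 0.22) and its relative Cdkn2d differed by -0.84 (SE 0.10). Among 44 tested genes of the other phase list, 7 were higher and 2 lower, led by Gas2l3, a cytoskeletal protein of cell division (2.95, SE 0.35), and the histone gene H2afz (1.38, SE 0.10). All of these passed an adjusted p of 0.05.

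Within gates, no member passed for the combination against untreated: 0 of 28 in the CD8 gate (4.66% of all genes called), 0 of 29 in the CD4 gate (6.33%) and 0 of 23 in the Foxp3 gate (0.156%), by edgeR and by DESeq2. At an unadjusted p under 0.05, edgeR gave 8, 7 and 4 members and DESeq2 1 in each gate. For Mki67 the changes were -1.82 (SE 0.58, adjusted p = 0.11) in the CD8 gate, -0.39 (SE 0.46, adjusted p = 0.63) in the CD4 gate and -1.56 (SE 0.43, adjusted p = 0.16) in the Foxp3 gate. In the CD8 gate its levels were 7.84 and 4.46 CPM untreated, 1.35 with S. chamaejasme, and 2.58 and 0.83 with the combination, so all 3 treated libraries were below both untreated ones. The median member changed by -0.39 in the CD8 gate, 0.02 in the CD4 gate and -0.23 in the Foxp3 gate, against 0.009, 0.007 and -0.001 for all genes. With 1 library left out these medians ran from -0.42 to -0.17 (without combination 2) in the CD8 gate and from -0.11 (without untreated 1) to 0.26 (without untreated 2) in the CD4 gate, where the value was also negative without combination 1 (-0.09) and without combination 2 (-0.03). In the Foxp3 gate the median was -0.22 without combination 2, -0.05 without combination 1, -0.04 without untreated 1 and 0.006 without untreated 2. The test of unequal change found 0 of 23 members for the CD8 against the CD4 gate (0.0213% of all genes called) and 0 of 23 for the Foxp3 against the CD4 gate (0.0744%), with 0 and 1 members at an unadjusted p under 0.05. No second tool was run for that test. For S. chamaejasme against untreated, edgeR and DESeq2 called 0 members in each gate, where edgeR called 2.77%, 2.62% and 0.204% of all genes in the CD8, CD4 and Foxp3 gates. The 3 median changes were -0.53, -0.41 (-0.24 without untreated 2) and -0.64, with 11, 7 and 6 members at an unadjusted p under 0.05 by edgeR and 1, 0 and 4 by DESeq2. Cdkn1a fell with the combination in both conventional gates, by 1.99 (SE 0.20, adjusted p = 0.0020) in the CD8 gate and by 1.55 (SE 0.15, adjusted p = 0.0011) in the CD4 gate.

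The sums do not show whether members were expressed together in dividing cells, so they were counted per cell, after each cell was thinned to 2000 UMIs. This left out 1765 shallower cells and kept 19784. Of these cells 41.0% had a UMI of no member and 78.6% of 0 or 1. Numbers fell steeply to 40 cells with 5 members and 19 with 6, and then flattened into a long tail that ended at 19 members in 1 cell. A cell with at least 6 of the 42 members was called cycling, which is a range of a score and not a cell type, and 65 cells were (0.329%). Those cells held 923 of the 19863 thinned member UMIs, or 4.65%.

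**Figure D4:**
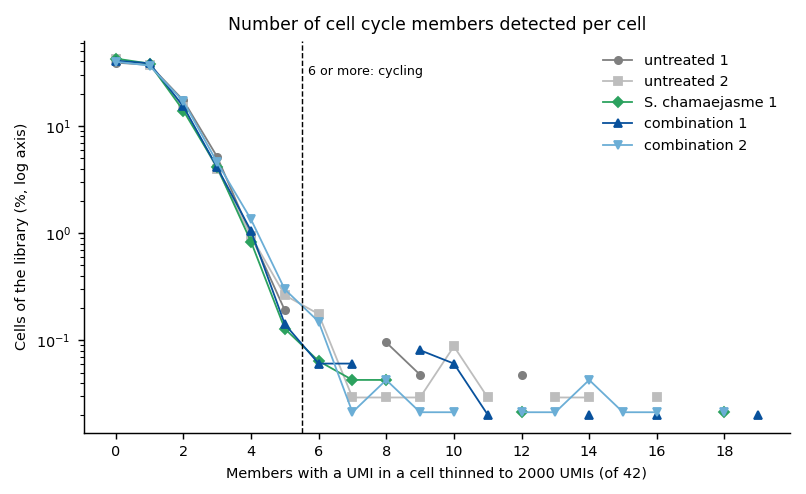
Share of the cells of each RNA library (vertical axis, percent on a log axis) by the number of members with a UMI after thinning to 2000 UMIs (horizontal axis); lines join neighbouring numbers and a number with no cell is not drawn. Over all libraries 41.0% of cells had 0 members and 40 cells had 5, and a tail of 65 cells lies to the right of the dashed line.

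Members differed in which cells held their UMIs, in a graded series. At one end was Pclaf: 84.9% of its 73 thinned UMIs were in cells with at least 5 other members and 4.11% in cells with none. Ube2c (41.0% of 78 UMIs), Mki67 (31.6% of 79) and Nusap1 (26.5% of 68) followed. Among rarer members, Ccna2 (84.2% of 19 UMIs), Birc5, the passenger protein survivin (69.6% of 46), Ccnb2, cyclin B2 (53.1% of 32), and Tk1 (51.4% of 37) lay in the same cells. At the other end were abundant members. For these, 1.12% of 3657 Cenpa UMIs, 1.44% of 3253 Pcna UMIs, 1.02% of 1859 Mcm4 UMIs and 3.09% of 2265 Dut UMIs were in cells with at least 5 other members, while 47.1%, 46.4%, 41.8% and 42.5% were in cells with no other member. Stmn1, also abundant, lay between, with 11.98% of 910 UMIs in cells with at least 5 other members and 36.3% in cells with none. A cell with a Pclaf UMI had 8.14 other members on average and a cell without one 0.88, and for Cenpa the means were 0.78 and 0.75. Of 24 members with at least 50 thinned UMIs, 14 had under 6% of UMIs in cells with at least 5 other members and 4 had at least 25%, thresholds set after the values were seen, and 6 lay between. Aurka, the member that fell with the combination, was at the low end, with 1.06% of 94 UMIs in such cells and 43.6% in cells with no other member. Kif23 was too (1.996% of 551), and the rarer Ccnb1, cyclin B1, had 2.56% of 39 UMIs there. For 16 members, Pclaf, Tk1, Mki67, Top2a, Ube2c and Ccna2 among them, a gene on the opposite strand overlaps the locus in the GENCODE vM21 annotation. The counting's use of strand is not given in the sources used here, so reads of such partners cannot be told apart.

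**Figure D5:**
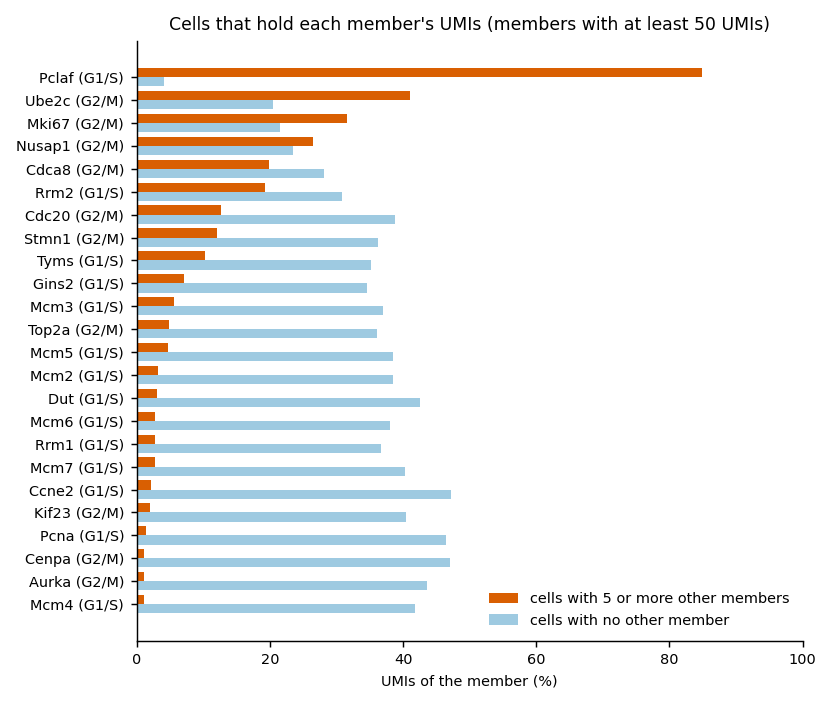
Share of each member's thinned UMIs (horizontal axis, percent) that lay in cells with at least 5 other members (orange) and in cells with no other member (blue), for the 24 members with at least 50 thinned UMIs (vertical axis, set in parentheses). Orange reaches 84.9% for Pclaf and is 1.02% for Mcm4 at the bottom.

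Cycling cells were rare in every library, and the ranges of the groups overlapped. They were 4 of 2091 cells (0.191%, 95% Wilson interval 0.0744 to 0.491) in untreated 1, 16 of 3407 (0.470%, 0.289 to 0.762) in untreated 2, 9 of 4674 (0.193%, 0.101 to 0.366) with S. chamaejasme, 17 of 4935 (0.344%, 0.215 to 0.551) in combination 1 and 19 of 4677 (0.406%, 0.260 to 0.634) in combination 2. The 2 untreated libraries enclosed all the others, and the S. chamaejasme library was about level with untreated 1. The combination mean was 0.375% and the untreated mean 0.330%, a difference of 0.0449 percentage points (exact permutation test, two-sided, p = 1.0, smallest possible 0.333). Without untreated 1 the difference turned to -0.0943. Intervals cover counting error only. Without thinning, 503 of 21549 cells reached 6 members (2.33%), and the combination libraries, which are the deepest, were 1.998 points above untreated.

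By gate the share ran from 7 of 3784 cells in the CD8 gate (0.185%) through 25 of 6013 in the CD4 gate (0.416%) to 12 of 1257 in the Foxp3 gate (0.955%). Another 2 of 200 cells in the Trdc gate, 6 of 419 with both CD4 and CD8 genes, and 13 of 8111 with no lineage UMI were cycling. Between combination and untreated the share differed by -0.239 points in the CD8 gate, 0.0947 in the CD4 gate and -0.369 in the Foxp3 gate. In the CD8 and Foxp3 gates both combination libraries were below both untreated ones (exact permutation p = 0.333 each, the smallest possible), on 1 to 4 cycling cells per library. The Foxp3 gate was above the CD4 gate in 5 of 5 libraries, by 1.31, 0.743, 0.125, 0.576 and 0.547 points in the library order above (mean 0.659, exact sign-flip permutation test p = 0.0625, the smallest 5 libraries allow). With thinned gates it was above in 3 of 5, by 0.312 points on average (p = 0.625, exact). The CD8 gate was below the CD4 gate by 0.176 points on average, in 4 of 5 libraries (exact p = 0.1875). Cycling cells held 78.7% of the Foxp3 gate's 89 Pclaf UMIs, 66.0% of its 47 Tk1 UMIs, 61.9% of its 63 Ube2c UMIs and 46.4% of its 69 Mki67 UMIs, but 5.45% of its 1065 Cenpa UMIs. Without those cells, mean levels of all 12 members called above were still higher in the Foxp3 than in the CD4 gate, from 1.19 times for Mcm3 to 6.13 times for Tk1. These 12 were chosen for being higher there. Of the 11 tested members that were not called, 5 were lower in the Foxp3 gate without cycling cells: Stmn1 (0.592 times, lower in 5 of 5 libraries), Mcm5 (0.682), Mcm2 (0.780), Mcm7 (0.794) and Mcm4 (0.944). Cycling cells held 50.2% of the Foxp3 gate's 247 Stmn1 UMIs and 19.4% of the CD4 gate's 1032. These ratios of CPM without TMM scaling were computed after the gate difference was seen and were not tested. Only cells with at least 6 members were taken out, so cells with 4 or 5 stayed in. At least 4 members were found in 39 of 1257 cells of the Foxp3 gate and 113 of 6013 of the CD4 gate. Cells too shallow to thin were never scored, and 1257 of 1377 Foxp3 and 6013 of 6246 CD4 cells were. The ratios thus do not show a difference between cells that were not dividing.

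Of the 65 cycling cells, 63 had UMIs of both sets, 39 with more G1/S than G2/M members, 21 with more G2/M members and 5 with equal numbers. They had a median of 9233 UMIs, against 4357 in the other cells. Markers of other cell types were more frequent in them. Of the 65, 60 had a Cd3d, Cd3e, Cd3g or Trac UMI (99.6% of the rest) and 8 had a UMI of another cell type's marker from the list of 16 genes used to exclude cells (12.3%, against 4.41% of the rest). On the longer lists of each type, which also hold genes such as Cd79b, 9 of the 65 had a B cell marker UMI (13.8%, against 1.63%), 6 a myeloid one (9.23%, against 2.08%) and 12 an endothelial one (18.5%, against 14.6%). The highest count from the list of 16 in 1 cell was 52 UMIs, in combination 1. The part of these markers in the results was not tested. Of the 65, 2 had 2 or more productive TRB chains (618 of all 21549 kept cells), 6 were in the gate with both CD4 and CD8 genes (419 of 19784 cells) and 0 were among the highest Scrublet doublet scores. With a T cell gene required and other markers excluded, 56 of 18845 cells were cycling (0.297%), 11 of 1021 in the Foxp3 gate, 25 of 5831 in the CD4 gate and 5 of 3650 in the CD8 gate.

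Other genes of these cells were read from the lists that hold no member, in sums of cycling and other cells of each library (10 sums, library as a block). The cells were chosen by their member UMIs, so phase genes in them are no independent finding, and their greater depth goes with every value. These sums pooled cells of all gates, and the lineage mix differed. A Cd4 UMI was in 64.6% of cycling cells and 35.04% of the rest. A regulatory T cell marker was in 49.2% and 24.6%, while CD8 genes were about equally frequent. The part of this mix in the differences below, those of T cell state genes included, was not tested. Of 14 tested regulators 9 were higher and 1 lower in cycling cells, where edgeR called 20.6% of all 9536 genes. Foxm1, the G2/M activator, had 16.7, 6.97, 26.2, 24.8 and 17.3 CPM in cycling cells and 0.827, 1.42, 0.655, 0.216 and 0.403 in the rest, without overlap (difference 5.04, SE 0.62). E2f1 was 3.49 higher (SE 0.44). Of 25 tested brakes 9 were lower and 1 higher. The quiescence factor Klf2 had 117, 669, 197, 331 and 716 CPM in cycling cells and 1328, 1919, 888, 1847 and 1983 in the rest, again without overlap (difference -2.04, SE 0.13), and the antiproliferative gene Btg1 gave a difference of -2.01 (SE 0.12). The kinase inhibitor p27 gene Cdkn1b gave -1.36 (SE 0.24), while Cdkn2c gave 2.95 (SE 0.41). Of 30 tested T cell state genes 13 were lower and 3 higher. The largest falls were Il17a (-2.65, SE 0.28), Ccl5 (-2.56, SE 0.14) and the recirculation gene S1pr1 (-2.29, SE 0.24), and Ccr7 gave -1.85 (SE 0.15). The effector genes Prf1 (-1.88, SE 0.69), Ifng (-1.82, SE 0.39), Gzmb (-1.17, SE 0.24) and Gzma (-0.82, SE 0.26) were also called lower, while Gzmk (0.87, SE 0.37) did not pass. The 2 granzymes called lower went the other way in untreated 1. There Gzma had 1856 CPM in cycling cells and 345 in the rest, and Gzmb 518 and 370. In every other library both were lower in cycling cells, with Gzma at 0.0 to 3.09 CPM. The higher ones were Il21 (1.45, SE 0.44), Pdcd1 (0.74, SE 0.27) and Ctla4. Il21 had 0.0, 69.7, 0.0, 6.19 and 63.5 CPM in cycling cells and 15.9, 17.2, 8.87, 7.22 and 8.55 in the rest. It was thus higher only in untreated 2 and combination 2. Ctla4, a checkpoint receptor, was 0.46 higher (SE 0.14, adjusted p = 0.0054), a call lost without combination 1 (adjusted p = 0.14), without combination 2 (0.058) and with a limit of at least 4 members (0.17). Quality genes fell along with these: Gm42418 gave -1.74 (SE 0.08), Lars2 -1.40 (SE 0.13) and AY036118 -1.04 (SE 0.11). The CD3 genes did too, with -0.61 for Cd3d (SE 0.14), -0.53 for Cd3e (SE 0.12) and -0.43 for Cd3g (SE 0.13). The B cell gene Cd79b was 2.85 higher (SE 0.47), and all of these passed the threshold. The T cell receptor genes Trac (0.09, SE 0.18), Trbc1 (0.15, SE 0.19) and Trbc2 (-0.15, SE 0.13) did not pass. The part of the quality, CD3 and B cell genes in the differences was not tested. With a limit of at least 4 members, the differences were 3.55 for Foxm1, -0.95 for Klf2, -0.80 for Btg1, -0.52 for Cdkn1b, -0.85 for S1pr1 and -0.78 for Ccr7, all past the threshold.

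The matched TCR libraries gave a readout that the members did not define. A clone was called expanded when at least 2 kept cells of a library shared a clonotype. In the CD4 gate, 6 of 24 cycling cells with a clonotype belonged to expanded clones, against 622 of 5571 other cells. The cycling share was higher in 4 of 5 libraries, by 29.1 points on average (exact sign-flip permutation test p = 0.125), a mean in which 1 cycling cell of untreated 1 counts as 100%. With at least 4 members, 22 of 106 cells were in expanded clones against 606 of 5489, higher in 5 of 5 libraries by 15.9, 13.4, 20.5, 4.01 and 5.37 points (mean 11.8, exact p = 0.0625, the smallest 5 libraries allow). In the CD8 gate the counts were 1 of 7 cycling cells and 748 of 3413 others, with a mean difference of -2.23 points (exact p = 0.9375). The cycling share was higher in 1 of 5 libraries, combination 2, where 1 cycling cell counts as 100% and the difference was 88.1 points. In the others it ran from -41.0 to -6.79 points. With at least 4 members the counts were 10 of 43 and 739 of 3377, with a mean difference of -1.23 points, higher in 2 of 5 libraries (exact p = 0.8125).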

How the data were processed

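Cell Ranger 3.1.0, STAR and the mouse build mm10 were used, per the submitters' processing notes. The authors deposited unnormalized UMI counts of each gene in each cell for 5 RNA libraries, and TCR contigs with UMI counts for 5 matched libraries. The sources used here do not say whether counting used strand. The members, gene lists and tests were chosen with earlier results of these data known. Named genes are the 42 members, the most abundant and all called ones with values by library, the 8 largest called differences between gates, and up to 6 called genes per list.

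A cell was kept if it had 300 genes or more and no more than 10% of its UMIs from mitochondrial genes. Scrublet's automatic threshold marked 17 cells, which is too few to have worked, so doublets stayed in and the 799 highest scores were removed as an alternative. Counts were summed per library, and per library and gate, and tested with edgeR 4.0.16 (R 4.3.3, quasi-likelihood test, TMM scaling, filterByExpr, Benjamini-Hochberg adjustment over all genes tested, threshold 0.05), with DESeq2 1.42.0 as an alternative. The fit over all cells had 2 residual degrees of freedom. Fits between gates and of cycling against other cells had the library as a block, because gates of 1 library share its cells' source. On simulated counts the test recovered 82% of 2-fold and 100% of 4-fold changes between combination and untreated, with 5 false calls, and 78.6% and 95.7% between the Foxp3 and CD4 gates, with 9 false calls. The simulation set the same spread for every gene in advance and drew only genes with at least 50 UMIs. That spread was not taken from these libraries, so the rates need not hold for the members. Shares of cells were compared by exact permutation tests, two-sided (scipy 1.17.1). The labels give no batch, so a batch and the groups cannot be told apart.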

Additional observations from a re-analysis of the deposited data

How the results depend on the processing

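Of the results other than counts and shares, 318 settings kept direction and side of the threshold, 48 lost and 23 gained the threshold, and 7 turned direction. The count of called members for the combination against untreated (1) was 0 with DESeq2, 2 in cells with a T cell gene and no other marker, 4 without a filter on low counts, and 0 to 15 when each library was left out. For S. chamaejasme against untreated (2) it was 0 with DESeq2, 4 in such T cells, 1 under a stricter filter (500 genes or more, mitochondrial UMIs no more than 5%), 4 without cells of 2 or more TRB chains, 10 without the filter, and 1 to 18 with each library left out. For the combination against S. chamaejasme (0) it was 1 with DESeq2, 9 without the filter and 0 to 17 with each library left out. In the CD8 gate (0) it was 2 in such T cells, 1 without the filter and 0 to 4 with each library left out, and in the CD4 gate (0) it was 3 without the filter and 0 to 4. Between the CD8 and CD4 gates (3) it was 5 in such T cells and 1 to 6 with each library left out, and between the Foxp3 and CD4 gates (12) it was 4 with thinned gates and 7 to 12. Without the library as a replicate block, 1 member was called between the CD8 and CD4 gates and 8 between the Foxp3 and CD4 gates. The share of all genes called in each of these alternatives is not given here, so the counts do not show a change particular to the members. For the treatment comparisons, a left-out library also left its group with 1 library. No paired analysis between treatment groups was possible because the labels link no library of a group to a library of another. The difference in cycling share between combination and untreated ran from -0.0943 to 0.184 points with each library left out. In the CD8 gate (-0.239) it was 0.062 with at least 10 members and 1.43 without thinning, in the CD4 gate (0.0947) -0.059 with at least 4 members and -0.0905 to 0.280 with each library left out, and in the Foxp3 gate (-0.369) 0.282 with at least 4 members and 1.12 without thinning. The CD8 difference in expanded clones (-2.23) was 3.64 points for clones of at least 3 cells and -24.8 to 7.46 with each library left out. Ctla4 in cycling cells (0.46) gave -0.083 in the CD4 gate with at least 4 members. The cause was not tested. The limit of 4 members for other genes of cycling cells, their CD4 gate alone, and the restriction of cycling cells to T cells were chosen after seeing the data.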
